A study of Mus musculus with 4 samples.

Results

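The nuclear genes for the 5 complexes of mitochondrial oxidative phosphorylation were compared between spleen RNA pools of newborn mice whose mothers had received carbon black nanoparticles (CB-NP) or water through the nose in pregnancy. Members were taken by name: symbols that start with Nduf, Uqcr, Cox4 to Cox8 or Atp5, and Sdha, Sdhb, Sdhc and Sdhd, without pseudogenes marked -ps. Of 99 such genes in the RefSeq table, 93 had a named probe, out of 20284 genes named on the array. The other 6 were not analysed here. Of these, Ndufb1, Ndufb4b and Ndufb4c are listed as protein coding, and Ndufa11b, Ndufs6b and Cox6c2 as pseudogenes without the -ps mark. The members were 38 genes of complex I, 8 complex I assembly factors named Ndufaf, 4 of complex II, 8 of complex III, 18 of complex IV and 17 of complex V.

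Oxidative phosphorylation takes place in the inner mitochondrial membrane. Complexes I (NADH dehydrogenase) and II (succinate dehydrogenase) pass electrons to ubiquinone, complex III passes them to cytochrome c, and complex IV (cytochrome c oxidase) passes them to oxygen. Complexes I, III and IV pump protons, and complex V (ATP synthase) uses the proton gradient to make ATP. Most subunits are encoded in the nucleus, while a few central ones of complexes I, III, IV and V are encoded by mitochondrial DNA. The newborn mouse spleen is a site of red cell production as well as a lymphoid organ, so its RNA mixes dividing erythroid cells, myeloid cells and early lymphocytes.

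Dams of the outbred ICR stock received CB-NP, ultrafine particles of nearly pure carbon, by intranasal instillation at 95 microg/kg on gestational day 5 and again on day 9. Control dams received distilled water at 1 mL/kg each time. Spleens came from 5-day-old offspring. The RNA of each sex and treatment was combined into a single pool, which gave 2 control pools (male and female) and 2 CB-NP pools (male and female), and each of the 4 was read on 1 single-colour Agilent array. The number of animals and litters behind a pool is not given in the sources used here. The dose was given to the dam, so pups of 1 litter share it.

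With 1 array per group there was no replicate spread within a group, and no difference within a sex was tested. All 4 arrays lay on 1 slide with 1 scan date, and array position and group cannot be told apart. Of the non-control spots, 57.3% to 59.0% were well above background on each array and none was saturated. Precision is limited by the number of arrays. All 5 measured markers of spleen stroma and the marginal zone were well above background on all 4 arrays, as were the 8 B cell, 8 T cell and 9 erythroid markers. Of the 93 members, 90 were well above background on all 4 arrays, 1 (Cox8b) on 1 array and 2 (Cox7b2 and Cox8c) on none. Levels below are log2 of the processed signal minus the array's 75th percentile, and differences are CB-NP minus control on that log2 scale unless stated. They compare a probe with itself across pools and not 1 gene with another. Where 4 levels are given, those of the controls (male, then female) come first, and those of the CB-NP pools (male, then female) stand after "against".

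As scaled here, the median of each of the 5 complexes lay slightly lower in both CB-NP pools. Counts and medians by complex, here and below, are for this scaling only and were not rerun under the alternatives. In males 83 of the 90 measured members were lower, against 54.8% of all genes, and their median difference was -0.14 against -0.02 for all 14188 genes measured in the pair. In females 81 of 90 were lower, against 56.7% of all genes, with a median of -0.17 against -0.04 for 14076 genes. The member median minus that of all genes was -0.12 in males and -0.13 in females, and 79 and 73 of the 90 members lay below the median of all genes. With quantile normalization these values were -0.063 and -0.055, with 68 and 56 members below, and with cyclic loess -0.076 and -0.054, with 72 and 56 below. Single members ranged from -0.56 to 0.54 in males and from -0.52 to 0.41 in females. The shifts were small: a log2 difference of 0.5, which is 1.41-fold, was passed downward in males by Ndufv3 and Cox7b only (2 of 90, background 2.85%) and upward by Ndufaf8 (1 of 90, background 3.77%). In females Ndufa10 passed it downward (1 of 90, background 3.95%) and no member upward (background 6.27%). In a whole spleen, fewer cells of a type and less RNA per cell cannot be told apart.

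**Figure D1:**
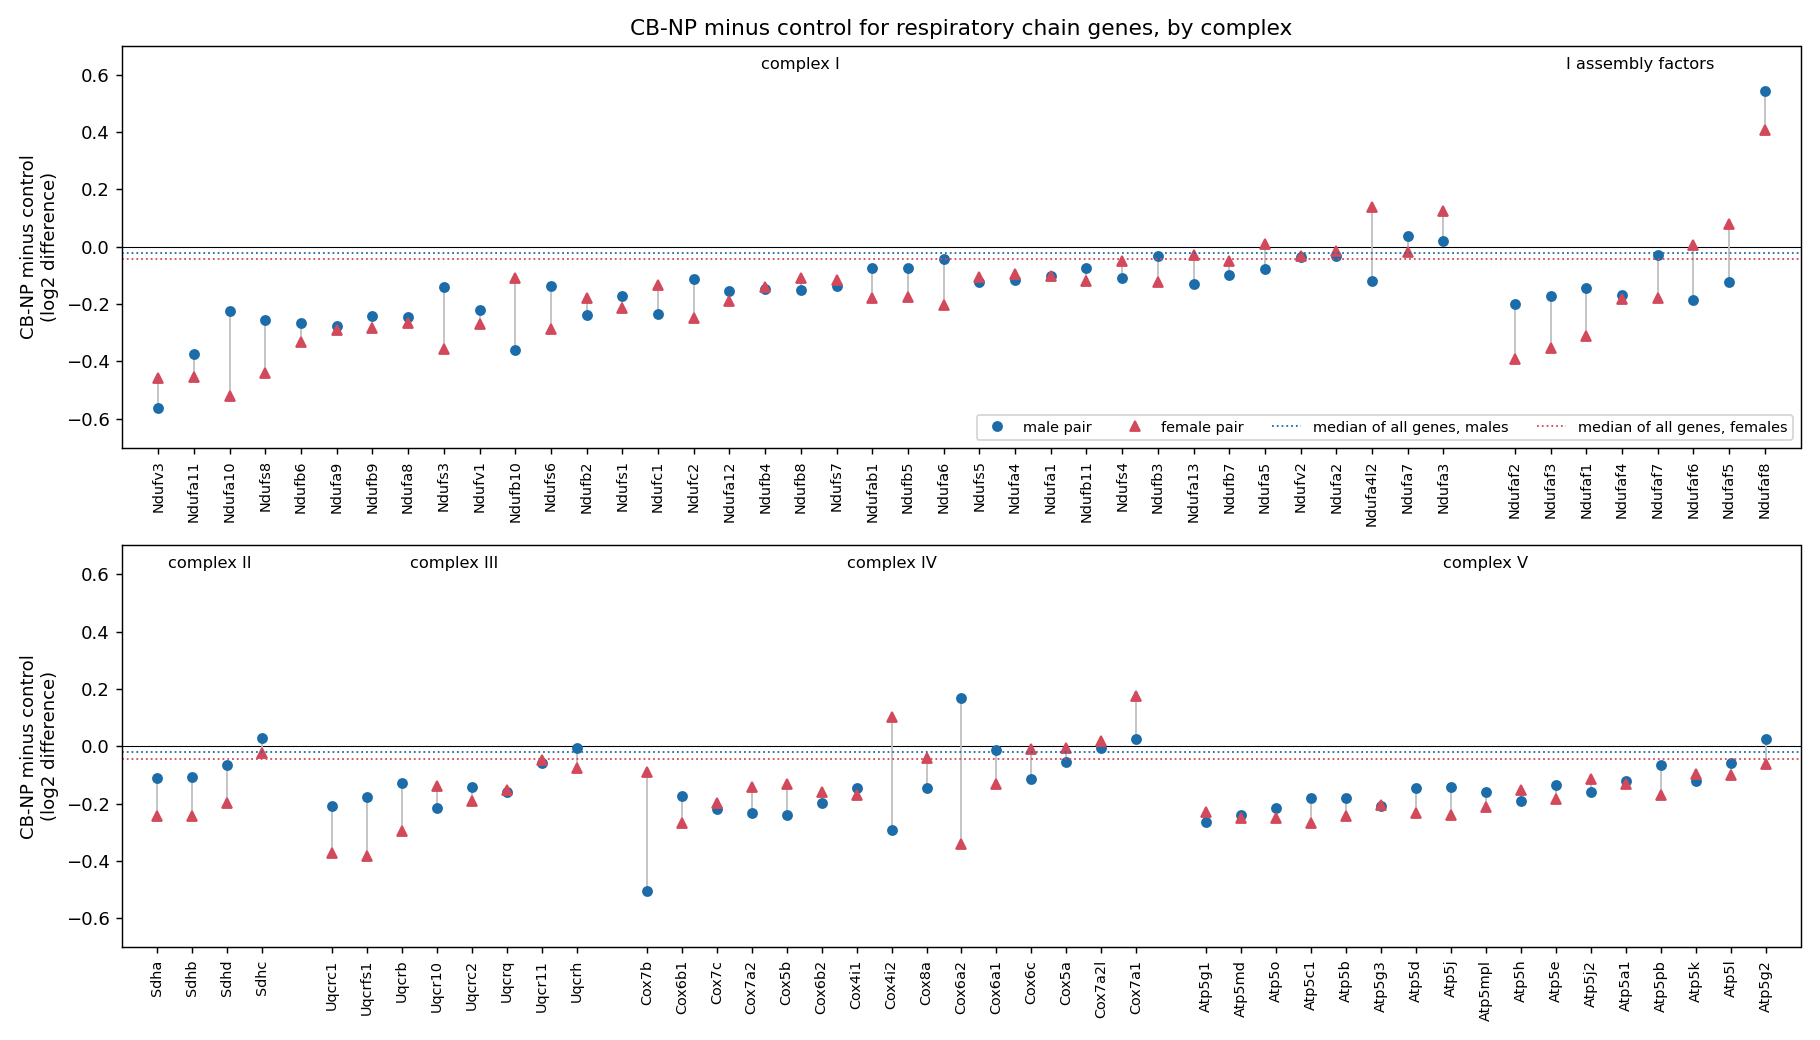
Log2 difference of CB-NP minus control (vertical axis) for 89 of the 90 members well above background on all 4 arrays, by complex and ordered within a complex by the mean of both sexes. Circles are the male pair, triangles the female pair, and dotted lines the medians of all genes. Most points lie between 0 and -0.4, and Ndufaf8 stands alone above 0.4 in both pairs.

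The error deposited with each signal, called the scanner error here, gave 0.20 for the difference of a typical member. It concerns the spots and not the pools. It was nearly the same for dim and bright members read by 1 spot, so it acts as a set share of the signal and not as a measured spread. Past that error 24 of 90 members were lower (background 15.6%) and 1 was higher (background 16.1%) in males, and 33 were lower (background 25.4%) and 1 was higher (background 19.7%) in females. Both CB-NP pools lay below both control pools in 70 of 90 members, against 32.7% of 13936 genes well above background on all 4 arrays. Both lay above in Cox7a1 and Ndufaf8 (2 members, background 21.8%). The count of 70 was 43 with quantile normalization, where the background was 26.5%, and 51 with the authors' value table, where it was 19.9%. The female CB-NP pool was the lowest of the 4 in 72 members, and the highest was the male control in 53 and the female control in 30. This order was not counted over all genes, so whether it is unusual is not known. Medians of all genes were also negative in the female pair (-0.04) and for female minus male CB-NP (-0.02). The range over the 4 pools had a median of 0.24 for members and 0.29 for all genes, and it reached 0.5 in 5 members (5.56%, against 20.0% of all genes).

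Since the male pair and the female pair were read on different arrays, the 2 sets of differences can be set side by side. Members had the same sign in both sexes in 80 of 90 cases (67.1% of all genes), of which 77 were lower in both (39.4% of all genes) and 3 were higher in both (Cox7a1, Ndufa3 and Ndufaf8). The other 10 had opposite signs: Atp5g2, Cox4i2, Cox6a2, Cox7a2l, Ndufa4l2, Ndufa5, Ndufa7, Ndufaf5, Ndufaf6 and Sdhc. No member passed 0.5 in the same direction in both sexes. Across the 90 genes, which share the 4 arrays and are not independent, the male and female differences had a Pearson r of 0.53 and a Spearman rho of 0.49, against 0.43 and 0.40 over all genes. Without Ndufv3 and Ndufaf8 the values were 0.35 and 0.45.

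**Figure D2:**
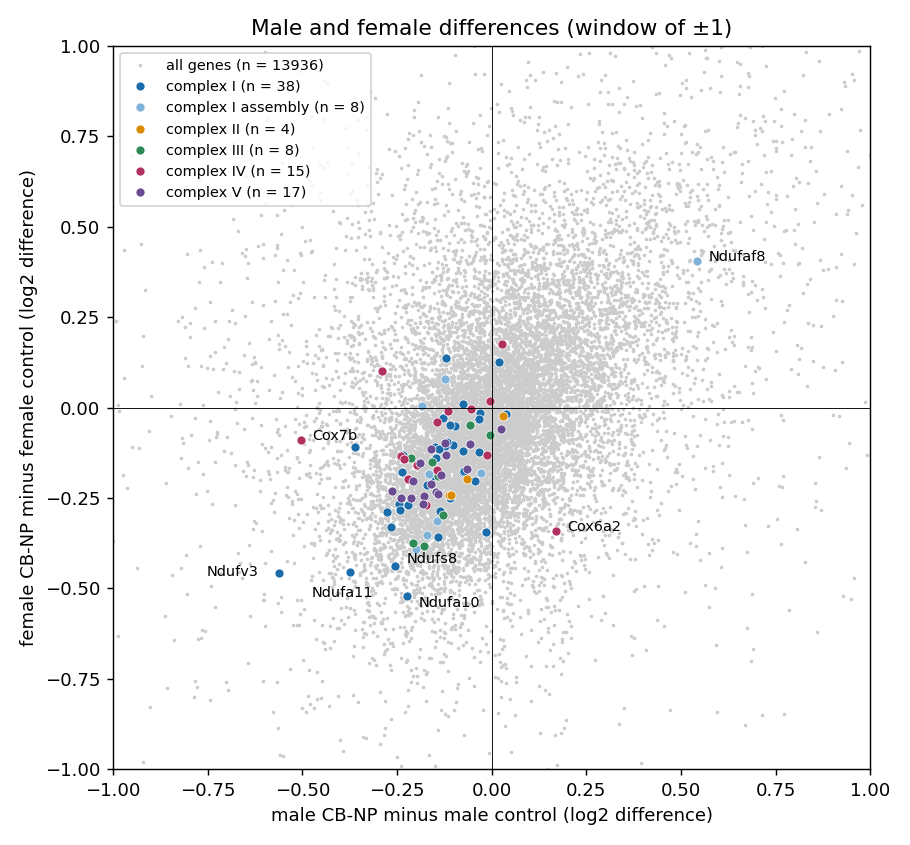
Male difference (horizontal axis) against female difference (vertical axis), both CB-NP minus control on the log2 scale. Grey points are the 13936 genes well above background on all 4 arrays, of which 229 lie outside the window, and coloured points are the 90 members by complex. The members gather in the lower left, where 77 of them lie.

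A limma model with treatment and sex, in which the sexes stood in for replicates and 1 residual degree of freedom was left, called no member at an adjusted p of 0.05 after Benjamini-Hochberg adjustment over 14503 genes. It called 10 genes lower (0.069%) and 2 higher (0.0138%). At an unadjusted p under 0.05 there were 7 members, 6 of them lower (7.78%), against 1996 genes (13.8%). That order depended on the model: members passed this level in 47 cases (52.2%, against 21.6% of all genes) with an intensity trend, in 24 (26.7%, against 16.2%) with normexp and in 22 (24.4%, against 16.4%) with no sex term, and in 3 to 11 cases under the other alternatives, where their share was below that of all genes. Adjusted p values of members ran from 0.310 to 0.985. The median fitted difference was -0.16 for members and -0.03 for all genes, with a median standard error of 0.091 for members. The pattern was therefore many small differences of 1 sign and no single gene past the test.

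The members at both ends of the range carried the clearest single values, and the stretches before their start sites are shown to let them be compared. Ndufv3, a small accessory subunit of the NADH-oxidizing arm of complex I, had the lowest mean difference. Its level was 5.86 and 5.69 in the male and female controls and 5.30 and 5.23 in the male and female CB-NP pools. Both CB-NP pools were below both controls, by 1.48-fold in males and 1.37-fold in females, with a limma estimate of -0.51 (SE 0.093, adjusted p = 0.310, between 0.00133 and 0.705 over the alternatives). A second, dimmer Ndufv3 probe differed by -0.05 in males and -0.28 in females, and the mean over both probes was -0.31 in males. Ndufa11, an accessory subunit of the membrane arm, was at 3.74 and 3.77 against 3.36 and 3.32. Its groups did not overlap either, and limma gave -0.41 (adjusted p = 0.319, between 0.0226 and 0.705 over the alternatives). Both genes were called lower in 2 alternatives, normexp background correction and an intensity trend in limma, and in no other. Ndufaf8, a complex I assembly factor that works with Ndufaf5, went the other way at -1.54 and -1.50 against -1.0 and -1.09. Its CB-NP pools were both higher than both controls, by 0.54 in males and 0.41 in females, from a low signal (limma 0.47, adjusted p = 0.310, between 0.0866 and 0.705 over the alternatives).

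Promoters were taken from the RefSeq promoter table of build GRCm38.p6, which holds 250 bases before and 50 after each gene start, and 76 of the 93 members matched. Below, the 250 bases before the start are printed 5′ to 3′ on the gene's strand for the lowest members Ndufv3 (chr17:31519865-31520114, plus strand) and Ndufa11 (chr17:56717512-56717761, plus strand), for the highest member Ndufaf8 (chr11:120098684-120098933, plus strand), and for Atp5h (chr11:115419920-115420169, minus strand), a peripheral stalk subunit of complex V that holds 2 of the motifs searched. Capitals mark the motif matches.
Ndufv3: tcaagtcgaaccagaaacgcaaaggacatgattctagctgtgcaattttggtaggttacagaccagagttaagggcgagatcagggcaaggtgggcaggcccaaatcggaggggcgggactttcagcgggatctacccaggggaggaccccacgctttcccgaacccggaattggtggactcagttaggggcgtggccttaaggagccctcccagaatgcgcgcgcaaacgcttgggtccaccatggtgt
Ndufa11: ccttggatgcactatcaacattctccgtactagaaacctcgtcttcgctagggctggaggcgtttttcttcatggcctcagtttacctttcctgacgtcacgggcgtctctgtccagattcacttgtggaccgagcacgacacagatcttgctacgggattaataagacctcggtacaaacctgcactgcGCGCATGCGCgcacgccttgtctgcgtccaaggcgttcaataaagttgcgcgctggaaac
Ndufaf8: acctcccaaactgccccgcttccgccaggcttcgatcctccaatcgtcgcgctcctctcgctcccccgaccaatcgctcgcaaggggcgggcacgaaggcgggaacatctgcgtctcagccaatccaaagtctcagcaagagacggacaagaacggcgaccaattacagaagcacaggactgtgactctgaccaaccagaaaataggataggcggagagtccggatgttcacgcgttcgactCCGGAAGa
Atp5h: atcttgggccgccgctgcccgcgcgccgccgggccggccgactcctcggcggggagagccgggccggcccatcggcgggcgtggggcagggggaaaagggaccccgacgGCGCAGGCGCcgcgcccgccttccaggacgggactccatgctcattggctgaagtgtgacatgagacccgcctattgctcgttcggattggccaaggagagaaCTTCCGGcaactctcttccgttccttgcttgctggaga
Both strands were searched for 3 motifs: that of NRF1, whose matches are the capitals of Ndufa11 and the first capitals of Atp5h, CCGGAAG, the ETS core bound by GABPA, and that of YY1. No 2 of them overlap in the stretches shown. These factors are known regulators of nuclear respiratory genes. No searched letters fell in the Ndufv3 stretch. Ndufa11 held the NRF1 letters at position -60 from the start and Ndufaf8 the ETS letters at -8. Atp5h held the NRF1 letters at -141 and the ETS letters, read on the other strand, at -38. The window of Ndufaf8 also held the YY1 letters at 10, after the start and outside the stretch shown.

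Over the 300-base windows, the NRF1 letters were in 19 of 76 members (25%), against 5.19% of the promoters of 27025 genes and 10.3% of those of 11110 genes well above background on all 4 arrays. The ETS letters were also in 19 members (25%, against 9.93% and 18.1%). The YY1 letters were in 5 members (6.58%, against 0.755% and 1.65%). At least 1 motif was in 37 members (48.7%, against 14.5% and 27.2%). By complex, the NRF1 letters were in 6 of 15 matched genes of complex V, 2 of 3 of complex II, 7 of 33 of complex I, 2 of 7 of the complex I assembly factors, 1 of 5 of complex III and 1 of 13 of complex IV. The median difference was -0.14 for members with a motif and -0.15 for those without in males, and -0.20 and -0.14 in females. A match describes letters in a window and does not show binding.

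Complex I, the largest complex and the entry point for electrons from NADH, had a median of -0.13 in males and -0.16 in females. Of its 38 members, 36 and 35 were lower, and 35 and 31 lay below the median of all genes. The 7 core subunits encoded in the nucleus, which hold the flavin and the iron-sulfur clusters, were all lower in both sexes. Their medians were -0.14 and -0.27, and 6 of the 7 lay below the median of all genes in each sex. Ndufs8, an iron-sulfur core subunit, was at 3.46 and 3.45 in the male and female controls and 3.20 and 3.01 in the male and female CB-NP pools. Its 2 controls were nearly equal and both CB-NP pools were below them. Ndufv1, which binds the flavin, differed by -0.22 and -0.27, and Ndufs1, which carries iron-sulfur clusters, by -0.17 and -0.21. Ndufs3, another core subunit, differed by -0.14 and -0.36, Ndufs7, which holds the last iron-sulfur cluster before the quinone, by -0.14 and -0.11, and Ndufv2 by -0.03 and -0.03.

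Among the 30 accessory subunits of complex I, 28 were lower in each sex, with medians of -0.13 and -0.14. The median of all genes was above 28 of them in males and 25 in females. Ndufa10, on the matrix side of the membrane arm, was at 3.60 and 3.80 against 3.38 and 3.28. Its CB-NP pools were the 2 lowest, and the female control was the highest (limma -0.37, SE 0.119, adjusted p = 0.358, between 0.0675 and 0.705 over the alternatives). Ndufa9, Ndufb6 and Ndufb9, also accessory subunits, differed by -0.28, -0.27 and -0.24 in males and by -0.29, -0.33 and -0.28 in females. Ndufb10 differed by -0.36 in males and -0.11 in females, and Ndufs6 by -0.14 and -0.29. At the other end Ndufa3 was at 6.34 and 6.20 against 6.36 and 6.33, and Ndufa7 at 5.65 and 5.63 against 5.69 and 5.61. For both genes the groups overlapped.

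Ndufa4 has a Nduf name and is counted here with complex I by that name, although it is known to act in complex IV. It was at 5.02 and 4.92 against 4.91 and 4.83, with differences of -0.12 and -0.09. Its paralogue Ndufa4l2, a hypoxia-responsive gene, was at 0.34 and 0.15 against 0.22 and 0.29, lower in males and higher in females.

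Of the 8 complex I assembly factors, which build the complex and are not part of it, 7 were lower in males and 5 in females (medians -0.16 and -0.18). Ndufaf2 was at 2.35 and 2.42 in the male and female controls and 2.15 and 2.02 in the male and female CB-NP pools, with both CB-NP pools below both controls. Ndufaf1 and Ndufaf3 differed by -0.15 and -0.17 in males and by -0.31 and -0.35 in females. Ndufaf5, the partner of Ndufaf8, differed by -0.12 in males and 0.08 in females.

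Complex II, which also serves the tricarboxylic acid cycle, had a male median of -0.09 and a female median of -0.22. Sdha, the flavin subunit that oxidizes succinate, was at 4.40 and 4.51 in the male and female controls and 4.29 and 4.26 in the male and female CB-NP pools. Sdhb, the iron-sulfur subunit, was at 5.96 and 6.01 against 5.85 and 5.77. Sdhd, a membrane anchor, was at 5.36 and 5.44 against 5.30 and 5.24. In these 3 genes the female control was the highest pool and both CB-NP pools were the lowest. Sdhc, the other membrane anchor, was at 3.81 and 3.81 against 3.84 and 3.79, a range smaller than the scanner error.

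All 8 members of complex III were lower in both sexes, with medians of -0.15 and -0.17, and 7 in males and 8 in females lay below the median of all genes. The core protein gene Uqcrc1 was at 4.36 and 4.42 in the male and female controls and 4.16 and 4.05 in the male and female CB-NP pools. Uqcrfs1, the Rieske iron-sulfur protein that hands electrons to cytochrome c1, was at 4.97 and 5.07 against 4.79 and 4.69. In both genes the CB-NP pools were below the controls, and the female difference was the larger one (-0.37 against -0.21, and -0.38 against -0.18), a contrast between the sexes that was not tested. Uqcrh, the hinge protein, was at 7.09 and 7.14 against 7.09 and 7.06 and showed the smallest mean difference of the complex. The 5 small subunits had medians of -0.13 and -0.14.

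Complex IV subunits come as widely expressed forms and as isoforms restricted to certain tissues. Of the 15 measured members, 11 in males and 9 in females lay below the median of all genes. The 10 widely expressed subunits were lower in both sexes, with medians of -0.16 and -0.13. Of these 10, 9 in males and 7 in females lay below the median of all genes. Cox7b, a small subunit on the X chromosome, was at 6.78 and 6.30 in the male and female controls and 6.28 and 6.21 in the male and female CB-NP pools. Only the male control stood apart, so the male difference of -0.50 was set by 1 pool, and the female difference was -0.09. Cox6b1, which faces the cytochrome c side, was at 3.98 and 3.97 against 3.80 and 3.70. Cox7c, another small subunit, was at 5.30 and 5.25 against 5.08 and 5.05. In both genes the CB-NP pools were below the controls, although a second Cox7c probe gave -0.20 in males and 0.12 in females. Cox4i1, the common form of a subunit that regulates the oxidase, differed by -0.14 and -0.17. Cox7a2l, which links complexes III and IV into supercomplexes, was at 6.26 and 6.28 against 6.26 and 6.30, a range under the scanner error.

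Of the 7 restricted isoforms of complex IV, 4 were measured on all arrays, and 2 of these 4 were lower in each sex. Cox6b2, known from testis, was at 4.21 and 4.13 in the male and female controls and 4.01 and 3.97 in the male and female CB-NP pools, with the CB-NP pools below the controls. Its widely expressed paralogue Cox6b1 had the same order of groups. Cox6a2, the striated muscle form, was at -2.24 and -1.57 against -2.07 and -1.91, and its female control stood 0.67 above the male control. The widely expressed Cox6a1 was at 8.83 and 8.78 against 8.81 and 8.65. Cox7a1, another muscle and brown fat form, was at -0.93 and -1.0 against -0.90 and -0.82, and its paralogue Cox7a2 at 5.53 and 5.42 against 5.30 and 5.28. Cox4i2, a form known from lung, was at -1.61 and -1.97 against -1.90 and -1.87, with the male control apart.

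Cox8b, the muscle form of Cox8a, was well above background in the female control only, at -5.01, and not in the male control (-6.80), the male CB-NP (-5.72) or the female CB-NP pool (-5.51). The bound of female control over female CB-NP was at least 1.00-fold, so no difference in that pair could be measured over background. Cox7b2 and Cox8c, known from testis, were not well above background on any array. Of 8 striated muscle markers, 4 were detected in every pool and 4 in none, with a summed level of 2.98 and 2.90 against 3.65 and 3.01 times the 75th percentile. Of 8 fat markers, 2 were on all arrays and 5 on none, with sums of 0.907 and 0.971 against 0.950 and 1.23. The part of either tissue in the isoform levels was not tested.

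In complex V 16 of 17 members were lower in males and 17 of 17 in females, with medians of -0.16 and -0.20. The same numbers lay below the median of all genes. The 5 subunits of the catalytic F1 head had medians of -0.15 and -0.23, and Atp5b, the catalytic beta subunit, differed by -0.18 and -0.24. The membrane-embedded c-ring turns as protons pass, and its subunit is encoded by the genes Atp5g1, Atp5g2 and Atp5g3, which yield the same mature protein. Atp5g1 was at 7.0 and 6.88 in the male and female controls and 6.74 and 6.65 in the male and female CB-NP pools, and Atp5g3 at 7.03 and 6.98 against 6.82 and 6.77. Both had CB-NP pools below controls. Atp5g2 was at 7.31 and 7.23 against 7.33 and 7.17, with overlapping groups, and its second probe gave the same picture (0.05 and -0.02).

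The peripheral stalk holds the F1 head still. Its 4 genes had medians of -0.17 and -0.21, and Atp5o, which ties the stalk to the head, was at 4.76 and 4.77 against 4.54 and 4.52. Atp5md, a small membrane subunit, was at 5.79 and 5.78 against 5.55 and 5.53. In both genes the 2 controls were nearly equal and both CB-NP pools were lower. Atp5k and Atp5l, subunits that help ATP synthase form dimers, were at 6.32 and 6.19 against 6.19 and 6.10 and at 6.62 and 6.68 against 6.56 and 6.58, the smallest shifts after Atp5g2.

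**Figure D3:**
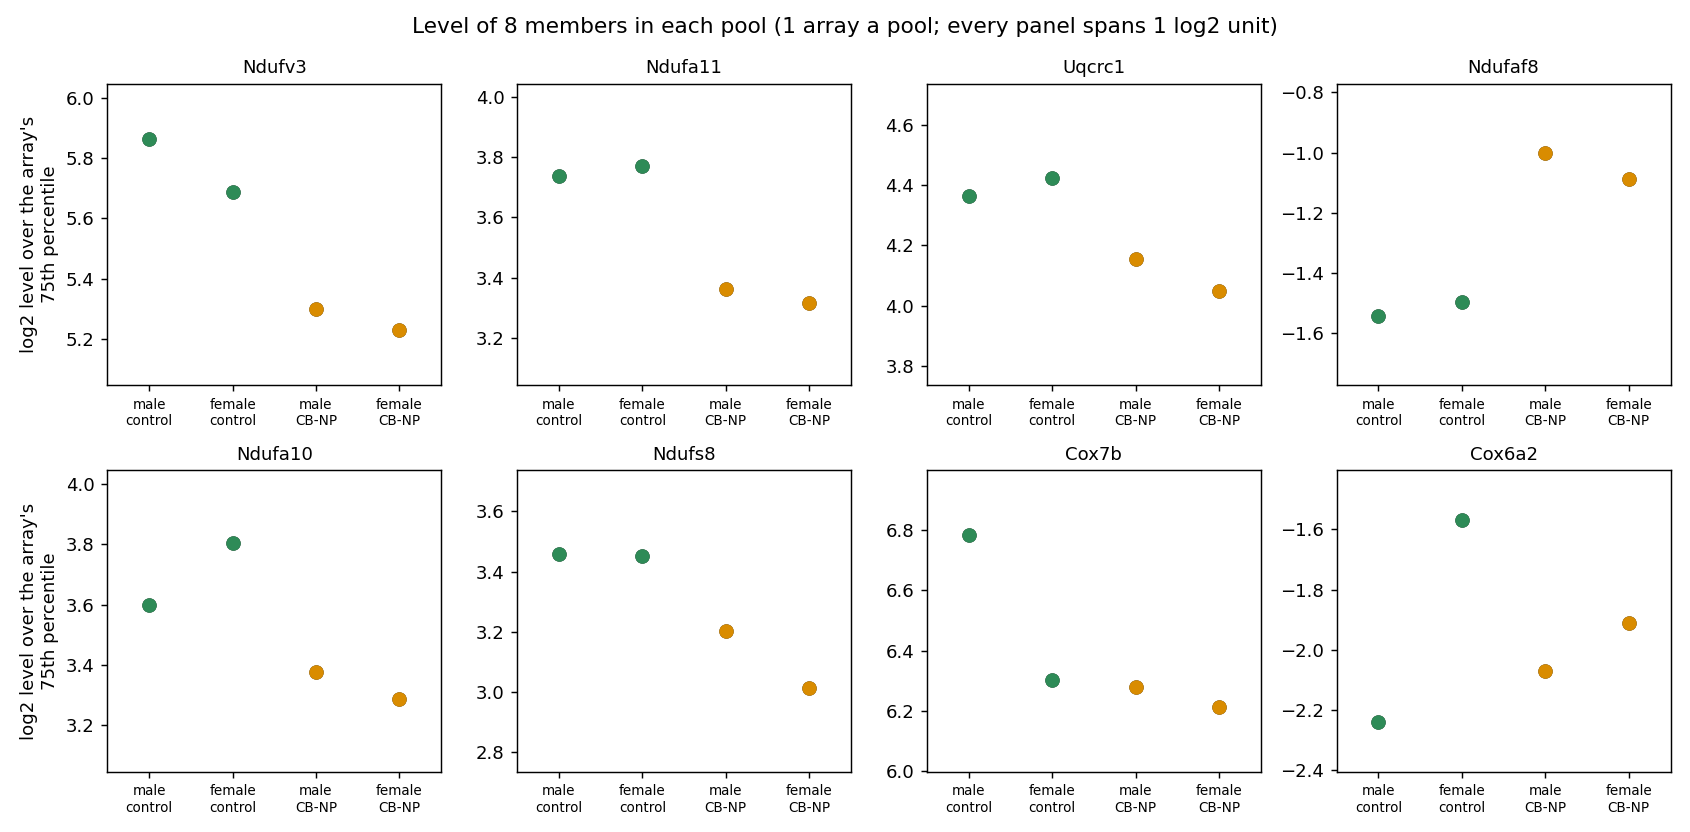
Level (log2 over the array's 75th percentile, vertical axis) of 8 members in each of the 4 pools, with 1 point per array and every panel spanning 1 log2 unit. Controls are green and CB-NP pools orange. In Ndufv3, Ndufa11, Uqcrc1, Ndufaf8, Ndufa10 and Ndufs8 the treatments do not overlap, and in Cox7b and Cox6a2 a single control pool stands apart.

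The 2 control pools, 1 of each sex, show how far members differed between pools without exposure. Sex, pool and array cannot be told apart in that contrast. Female minus male, the median of the members was -0.04 in controls, with 57 of 90 lower (background 47.6%), and 0.01 for all genes. Relative to all genes the member median was -0.047, both as scaled here and with median centring, which shifted all genes by 0.12 in this comparison and the member median with them to 0.08. With normexp it was 0.01, and -0.0015 relative to all genes. Only Cox6a2 passed 0.5, upward (1 of 90, background 2.33%), and no member downward (background 3.9%). Between the CB-NP pools the median was -0.06, with 75 of 90 lower (background 57%) against -0.02 for all genes, and no member passed 0.5 in either direction (background 1.91% and 2.62%). By complex, all 4 genes of complex II were higher in the female than in the male control (median 0.07) and lower in the female than in the male CB-NP pool (median -0.05). Of the 15 genes of complex IV, 13 were lower in the female control (median -0.07). Of the 3 members on the X chromosome, Cox7b differed by -0.48 between the controls, and Ndufa1 and Ndufb11, both accessory subunits of complex I, by -0.04 and -0.01.

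Respiratory genes give strong signals. As scaled here, all genes together had medians below 0 in each signal band over 1000, in both sexes. A mean processed signal over 1000 was found for 92.2% of members and 40.4% of all genes, and over 10000 for 58 members and 7.53% of all genes. Under 1000, the 7 members had a median of -0.12 in males, with 4 lower, and of 0.10 in females, with 1 lower, against 0.01 in both sexes for 8308 genes. In males, genes with signals of 1000 to 10000 had a median of -0.04 and the 25 members among them -0.17. Between 10000 and 30000 the values were -0.09 for all 708 genes and -0.14 for 37 members, and over 30000 they were -0.07 for 341 genes and -0.14 for 21 members. In females the pairs of values for these 3 bands were -0.09 and -0.25, -0.13 and -0.14, and -0.05 and -0.11. Quantile normalization gives all arrays the same distribution of signals. With it the member medians in the 3 bands over 1000 were -0.14, -0.04 and -0.05 in males and -0.14, -0.04 and -0.00 in females. The medians of all genes in these bands then lay between -0.02 and 0. Members between 1000 and 10000 thus lay below other genes of like signal in both sexes under both scalings, and the brighter members lay closer to them. In females, the 21 members over 30000 were all lower as scaled here, while 11 were lower with quantile normalization and 9 with cyclic loess. Of these 21, 18, 10 and 18 lay below the median of the band under the 3 scalings. The part of signal strength in the differences was not tested further.

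**Figure D4:**
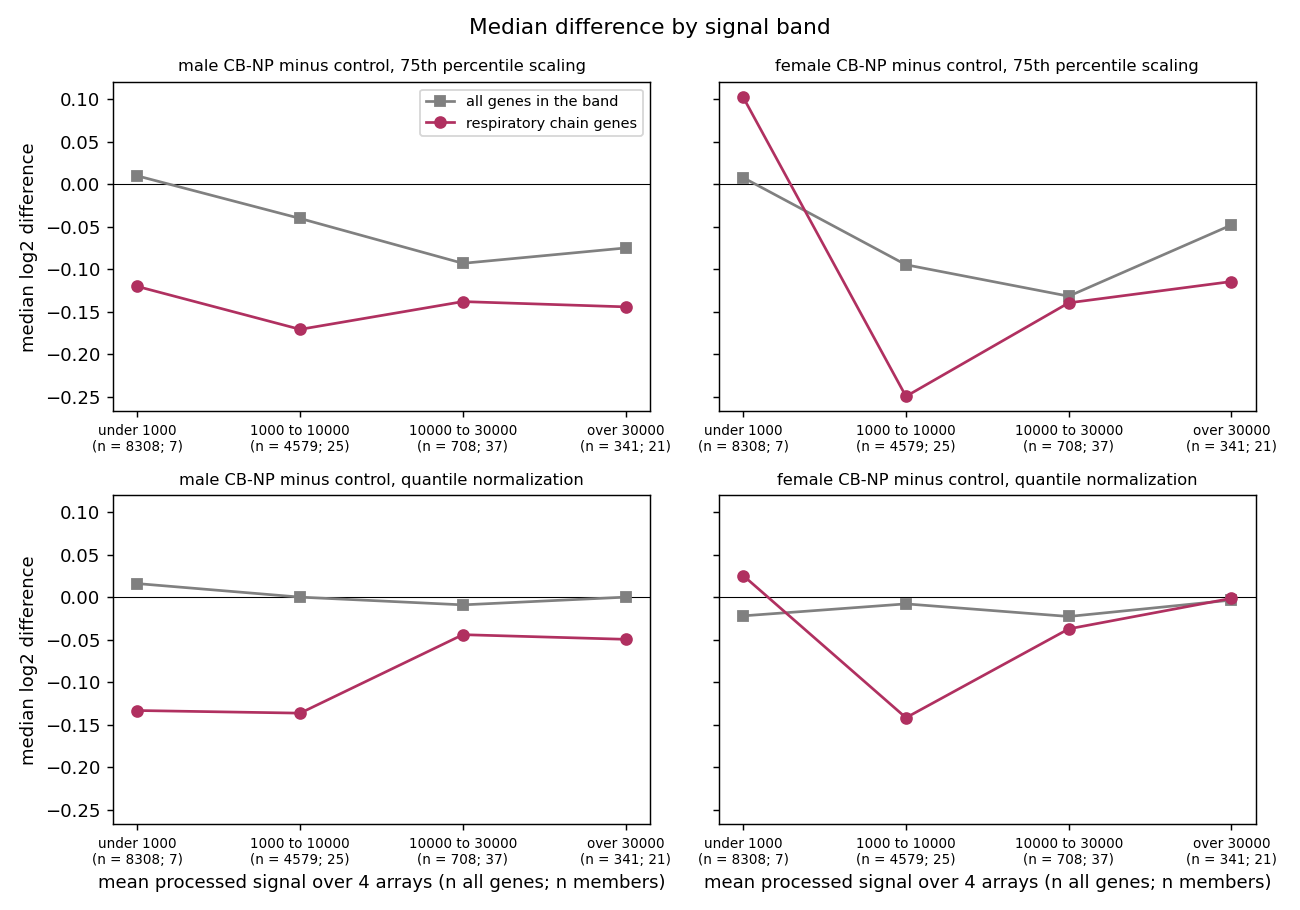
Median log2 difference of CB-NP minus control (vertical axis) by band of mean processed signal (horizontal axis, with the numbers of genes and members), for all genes (squares) and members (circles). Columns are the sexes, and rows are scaling by the 75th percentile and quantile normalization. The gap between the lines is widest from 1000 to 10000 in females and narrows above 10000 under quantile normalization.

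Other probes of the same genes gave similar medians and mostly the same sign, while the size differed for some genes. For 23 members, 30 further probes were well above background in every pool, and 27 were lower in males and 26 in females, with medians of -0.14 and -0.15. The sign was that of the first probe for 29 of them in males and 25 in females. A second Sdhb probe gave -0.28 and -0.44, larger than the first (-0.11 and -0.24). In males the second Ndufv3 probe gave -0.05 and the first -0.56. In females the second Ndufaf4 probe gave -0.42 and the first -0.18. Many respiratory subunits have processed pseudogenes of nearly the same sequence, and a probe may also read such copies.

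Most other mitochondrial gene lists had medians below 0 in both sexes. These and the lists further below were read under the main scaling only. Of all genes, 54.8% were lower in males and 56.7% in females (medians -0.02 and -0.04). Among genes with signals over 30000, 85.3% were lower in males and 63.0% in females. Tricarboxylic acid cycle genes were lower in 12 of 13 in males and 13 of 13 in females (medians -0.11 and -0.31), and Idh3b, a subunit of isocitrate dehydrogenase, differed by -0.15 and -0.51. Mitochondrial import genes were lower in 15 and 16 of 17 (-0.13 and -0.23), and cristae and supercomplex factors in 9 and 9 of 9 (-0.21 and -0.18). Mitochondrial ribosomal proteins, which serve translation of the mitochondrially encoded subunits, were lower in 70 and 75 of 77 (-0.13 and -0.26). Complex IV assembly factors were lower in 17 and 20 of 20 (-0.07 and -0.18), with Cox10, which makes a precursor of the oxidase's heme, at -0.23 and -0.84. Respiratory genes outside the name rule were lower in 5 and 8 of 8 (-0.20 and -0.36), among them Cyc1, the cytochrome c1 gene of complex III, at -0.27 and -0.42. Assembly factors of complex I not named Ndufaf were lower in 7 and 8 of 9 (-0.12 and -0.22), those of complex II in 2 and 4 of 4 (-0.05 and -0.25), those of complex III in 2 and 3 of 5 (0.03 and -0.13), and those of complex V with its inhibitor in 2 and 3 of 3 (-0.15 and -0.18). The male median of the complex III assembly factors was thus above 0. Limma called none of the genes of these lists.

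Regulators of respiratory gene transcription were mixed, with 5 of 7 lower in each sex (medians -0.13 and -0.08). Pprc1, a coactivator of the NRF1 pathway, differed by -0.36 and -0.08, and Esrra, an orphan nuclear receptor that acts on these genes, by 0.18 and 0.12. Genes for replication and transcription of mitochondrial DNA were lower in 5 and 6 of 10 (0.01 and -0.11). Antioxidant and uncoupling genes were lower in 8 and 8 of 9 (-0.07 and -0.14). Glycolysis genes were lower in 9 and 11 of 16 (-0.03 and -0.13), and Slc2a1, the glucose transporter, was at 0.28 and 0.42. Limma called none of these either. The 13 mitochondrially encoded respiratory genes had no named probe and were not analysed here.

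Lists of other functions were set beside these. Proteasome subunits were lower in 34 of 38 in each sex, with medians of -0.16 and -0.29. Cytosolic ribosomal proteins were lower in 75 and 42 of 81, with medians of -0.06 and -0.00. No list was tested against another, and nothing here is called particular to the respiratory chain.

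**Figure D5:**
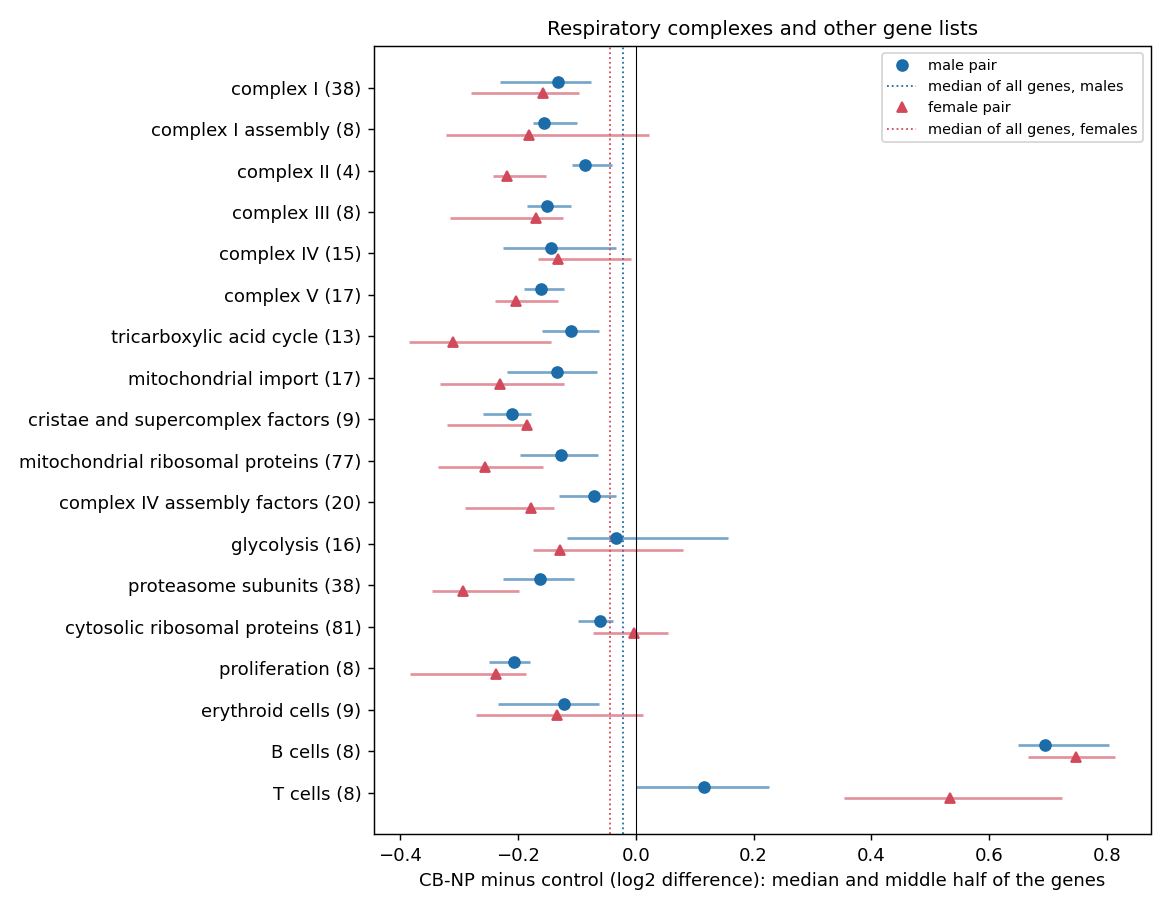
Median (point) and middle part of the genes, from the lower to the upper quartile (bar), of the CB-NP minus control difference (log2, horizontal axis) for each complex and for other gene lists, with the number of genes in parentheses. Circles are the male pair, triangles the female pair, and dotted lines the medians of all genes. The complexes, other mitochondrial lists, proteasome and proliferation genes lie left of the dotted lines, and B cell genes lie right of them.

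Cell type markers also differed between these pools. Proliferation markers were lower in 8 of 8 in both sexes (medians -0.21 and -0.24), and their summed level was 660 and 675 times the 75th percentile in the male and female controls against 573 and 588 in the CB-NP pools. B cell markers were higher in 8 of 8 (0.70 and 0.75), with sums of 57.6 and 54.1 in controls and 97.7 and 90.2 in CB-NP pools. Erythroid markers were lower in 8 and 6 of 9 (-0.12 and -0.13), with sums of 2412 and 2097 in controls and 2270 and 2357 in CB-NP pools. Pancreatic acinar markers, from an organ next to the spleen, summed to 27.3 and 20.5 in controls and to 0.681 and 0.809 in CB-NP pools, and 7 of 13 were called lower by limma. Eosinophil markers were lower in 6 of 6 (-2.47 and -2.23), with sums of 31.8 and 62.3 in controls and 8.89 and 17.2 in CB-NP pools. T cell markers were higher in 6 and 8 of 8 (0.12 and 0.53), with sums of 28.8 and 28.0 in controls and 30.5 and 38.8 in CB-NP pools. Neutrophil markers were higher in 7 of 8 in males (0.14) and lower in 8 of 8 in females (-0.34), with sums of 1331 and 1397 in controls and 1398 and 1194 in CB-NP pools. Spleen stroma and marginal zone markers were higher in 3 and 4 of 5 (0.16 and 0.34), megakaryocyte and platelet markers in 5 and 1 of 5 (0.29 and -0.03), and macrophage markers in 6 and 3 of 7 (0.09 and -0.03). The part of these cells in the respiratory chain differences was not tested.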

How the data were processed

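RNA of 4 spleen pools was read, each on its own array. Per the file headers, arrays of design 028005, drawn on mouse build mm9, were read with Agilent Feature Extraction 10.10.1.1. The deposited processed signal is an intensity on a linear scale, background-subtracted and not normalized between arrays per the file headers. The authors' deposited value table is an intensity equal to it times 1 constant per array (3.10, 3.18, 2.64 and 3.49, column medians 75.2, 76.1, 68.9 and 79.4), and the target of that scaling is unknown. Deposited flags of 0 or 1 (other columns) mark spots well above background.

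Log2 signal was centred on each array's 75th percentile, and repeated spots were averaged without outlier flags. Of 55681 probes, 26762 were named by RefSeq accession (table of GRCm38.p6, names only) and 28919 were not. A gene took its brightest probe and entered a comparison when well above background on both arrays. Limma was fitted on genes so on at least 2 arrays. It was run on simulated data with changes larger than those of the members, which does not show how it performs for small ones. The members, lists and tests were chosen with earlier results of these data known. Named with values in all pools were the extremes of each complex, paralogues, complex II and partly detected genes, and some others were chosen after their values were seen. Protein comparison of paralogues was not analysed here, and 1 member is counted with the others and not reported singly here. Alternatives were median centring, quantile, cyclic loess, the value table, normexp (median-pixel signal, offset 50), filters, probe means, a threshold of 1, no Ndufaf genes, an intensity trend and no sex term. Software was Python 3.11.15, pandas 2.3.3, numpy 2.4.6, matplotlib 3.10.9, R 4.3.3 and limma 3.58.1.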

Additional observations from a re-analysis of the deposited data

How the results depend on the processing

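Each group was 1 pool, so leaving out a replicate was impossible. The limma model sets the pools side by side by sex through its sex term, and it called no member without that term either. The member median stayed below 0 in both sexes under every scaling and filter run, while its size depended on the scaling. With quantile normalization the medians were -0.058 in males, -0.070 in females, -0.022 between controls (female minus male) and -0.037 between CB-NP pools. With cyclic loess they were -0.067 and -0.063, and -0.029 between CB-NP pools. With the authors' value table they were -0.084 and -0.079, and -0.029 between CB-NP pools. Median centring moved the female median to -0.28 and that between CB-NP pools to -0.093, and it shifted all genes by -0.11 in females and 0.12 between controls. Between controls the sign turned to 0.081 with median centring, where 16 members were lower, and to 0.0085 with normexp, and the median was -0.024 with probe means.

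Relative to the median of all genes, members stood at -0.063 (males) and -0.055 (females) with quantile normalization, and at -0.076 and -0.054 with loess, with -0.022 between CB-NP pools. Without a detection filter these values were -0.068 and -0.20, with -0.0020 between controls and -0.072 between CB-NP pools. With normexp they were -0.0015 between controls and -0.059 between CB-NP pools.

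Members lower past 0.5 in males were 1 with median centring, the value table or probe means (344, 321 and 445 of 14188 genes). They were 0 with quantile, loess or a threshold of 1 (355, 358 and 72 genes). In females they were 5 with median centring and 3 with normexp (1128 and 312 of 14076 genes), and 2 without a filter (1388 of 20284). They were 0 with quantile, loess, the value table or a threshold of 1 (610, 590, 338 and 61 of 14076). Members higher past it in males were 0 with normexp, a threshold of 1 or no Ndufaf genes (189, 50 and 535 of 14188 genes). They were 2 without a filter (1338 of 20284). Between controls they were 0 with normexp or a threshold of 1 (72 and 36 of 14165 genes), and 2 without a filter (1127 of 20284). Members with both CB-NP pools below both controls were 43 with quantile normalization, against 26.5% of all genes. Of all genes, 405 were lower and 535 higher in males (106 and 189 with normexp), and 556 and 882 in females (1128 and 548 with median centring, 312 and 355 with normexp).

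Limma called 2 members, both lower, with normexp and 2 with an intensity trend. Over all genes its calls of 10 lower and 2 higher became 253 and 359 with normexp, 153 and 227 with the trend, 173 and 171 with median centring, and 3 and 0 with quantile or loess. The cause of these changes was not tested. Cox8b, near background, turned from -0.50 to 0.14 in females with normexp. The number of arrays and the small size of the differences, most of them under the scanner error of 0.20, limit any statement on a single member.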
